A study of Mus musculus with 24 samples.

Results

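The 6 genes described were grouped as enzymes and other products of Paneth cells outside the defensins. Which cells expressed them here was not determined. The genes are the lysozyme gene Lyz1, the matrix metalloproteinase gene Mmp7, the secreted phospholipase A2 genes Pla2g2a and Pla2g5, the ribonuclease gene Ang4 and the lectin gene Itln1. They were taken by name, as the lines of the estimated count table that carry these symbols, and each symbol stood on 1 of 37620 lines. All 6 passed the filter on low counts, which kept 16552 genes. Their identifiers in the table are ENSMUSG00000069515 (Lyz1, chromosome 10), ENSMUSG00000018623 (Mmp7, chromosome 9), ENSMUSG00000058908 (Pla2g2a, chromosome 4), ENSMUSG00000041193 (Pla2g5, chromosome 4), ENSMUSG00000060615 (Ang4, chromosome 14) and ENSMUSG00000038209 (Itln1, chromosome 1). With the loss of Apc, Mmp7, Pla2g2a and Pla2g5 rose in each of the 4 comparisons made, by 1.89 to 19.8 times. Lyz1, Ang4 and Itln1 passed in none of them, and 47.8% to 58.7% of all genes tested were called in either direction. With the loss of Nle1 none of the 6 passed in the fit to all libraries, where 2.48% to 34.9% of all genes were called. A fit to only the libraries compared called Pla2g2a and Pla2g5 with Apc lost on day 2.

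Paneth cells sit at the base of the small intestinal crypt, between the stem cells, and release granules of antimicrobial proteins into the crypt lumen. Lysozyme cuts the peptidoglycan of bacterial cell walls, matrilysin (MMP7) is the protease that activates the alpha-defensin precursors of the mouse, and secreted phospholipases A2 cleave membrane phospholipids. ANG4 is a ribonuclease of the angiogenin family with antimicrobial activity, and intelectin-1 is a lectin that binds sugars of microbial surfaces and is made by goblet cells as well. Wnt signalling through beta-catenin and TCF factors drives both stem cell maintenance and Paneth cell maturation, and APC is the scaffold protein by which beta-catenin is degraded. The C57BL/6 mouse strain carries a disrupted Pla2g2a, known as the Mom1 modifier of intestinal tumours in Apc mutant mice. The strain of these mice is not given in the sources used here, and RefSeq lists the gene of the reference strain as a transcribed pseudogene. Pla2g5 is known from several tissues outside the gut.

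Whole crypts were isolated from 5 to 10 cm of jejunum, and polyadenylated RNA was measured in 24 libraries, each from a different mouse. The mice were 5 to 10 weeks old, and all of them, Control animals included, had received tamoxifen (56 mg/kg, intraperitoneally, on 3 consecutive days), the drug that induces the conditional deletions. The 4 genotypes were Control, NlecKO (conditional knockout of Nle1, whose protein Notchless serves the maturation of the large ribosomal subunit), ApccKO (conditional knockout of Apc), and ApccKO;NlecKO, in which both genes are targeted and which is called the double knockout here. Each genotype was taken on day 1 and on day 2, which makes 8 groups of 3 mice. The series title puts these at 24 h and 48 h after induction, and which of the 3 injections counts as the induction is not stated. The driver of the recombinase, and so the cells in which the genes were deleted, is not given in the sources used here.

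The promoters show how the 3 genes that rose and those that did not compare in sequence around their start sites, where a TCF site could lie. The RefSeq promoter table (GRCm38.p6) holds Lyz1, Mmp7, Pla2g5, Ang4 and Itln1; Pla2g2a is named only. Each window of 300 bases runs from 250 bases before to 50 after the annotated start, on the strand of the gene, and capitals mark the TCF core motif, ACAAAG or TCAAAG on either strand. The windows lie at chr9:7691840-7692139, plus strand (Mmp7, the first of 2 annotated starts), chr4:138863420-138863719, minus strand (Pla2g5, the first of 2 starts), chr10:117292819-117293118, minus strand (Lyz1), chr14:51773541-51773840, minus strand (Ang4) and chr1:171535245-171535544, minus strand (Itln1).
Mmp7: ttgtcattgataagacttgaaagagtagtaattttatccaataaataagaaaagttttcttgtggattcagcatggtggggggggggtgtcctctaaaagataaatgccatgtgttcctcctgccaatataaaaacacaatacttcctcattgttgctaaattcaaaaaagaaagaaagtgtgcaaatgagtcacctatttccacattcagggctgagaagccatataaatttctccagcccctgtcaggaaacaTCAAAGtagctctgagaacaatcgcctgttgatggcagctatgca
Pla2g5: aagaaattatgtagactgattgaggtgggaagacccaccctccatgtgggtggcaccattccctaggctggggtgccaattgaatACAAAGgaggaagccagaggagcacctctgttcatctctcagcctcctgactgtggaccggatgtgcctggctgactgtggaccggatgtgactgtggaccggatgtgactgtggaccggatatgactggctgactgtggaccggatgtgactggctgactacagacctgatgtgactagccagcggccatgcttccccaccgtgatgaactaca
Lyz1: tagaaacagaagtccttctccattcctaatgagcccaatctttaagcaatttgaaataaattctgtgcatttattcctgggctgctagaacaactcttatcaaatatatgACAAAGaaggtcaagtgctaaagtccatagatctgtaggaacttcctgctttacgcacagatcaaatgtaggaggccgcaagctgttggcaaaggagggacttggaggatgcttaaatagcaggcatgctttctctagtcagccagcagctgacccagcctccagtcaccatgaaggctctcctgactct
Ang4: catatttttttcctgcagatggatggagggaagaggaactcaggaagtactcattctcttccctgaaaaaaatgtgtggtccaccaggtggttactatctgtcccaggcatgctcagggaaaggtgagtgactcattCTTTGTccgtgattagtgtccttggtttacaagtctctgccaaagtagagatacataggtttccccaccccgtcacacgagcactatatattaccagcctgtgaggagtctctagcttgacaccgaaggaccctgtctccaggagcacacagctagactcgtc
Itln1: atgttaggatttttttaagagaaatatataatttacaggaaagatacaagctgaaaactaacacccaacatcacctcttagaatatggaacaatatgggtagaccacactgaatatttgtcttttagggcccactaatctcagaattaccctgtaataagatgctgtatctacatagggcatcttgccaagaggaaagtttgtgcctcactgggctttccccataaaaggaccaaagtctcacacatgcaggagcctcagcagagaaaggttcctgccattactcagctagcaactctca

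Counted from the start site, the first base of the motif lay at position -165 in the Pla2g5 window and at -140 in the Lyz1 window. It lay at -113 in Ang4, on the opposite strand and so printed there as CTTTGT, and at position 6, just after the start, in Mmp7. The Itln1 window held none, nor did the window of the second Pla2g5 start, while the window of the second Mmp7 start held 2, of which 1 is the site just named, since the windows of both starts overlap. Of the 32851 windows of this length in the table, 31.2% held the motif, and windows with it occurred both among the genes that rose and among those that did not. A match is a string of letters and no measurement of binding. A second motif, the E-box CAGCTG that bHLH factors can bind, was found at position 7 after the start of Lyz1 and in none of the other 4 windows printed (16.3% of all windows held it).

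The libraries held 17.86 to 26.47 M estimated counts (median 19.82 M), of which the 6 genes took 0.506% to 1.33% (median 0.784%) and Lyz1 alone 0.371% to 0.944%. Nle1 itself, the check of the labels, stood at 24.8 ± 2.595 and 22.7 ± 4.502 CPM (SD, n = 3) in Control crypts on days 1 and 2 and at 5.53 ± 0.841 and 6.69 ± 1.02 CPM in NlecKO crypts. Its log2 fold changes with Nle1 loss ran from -2.16 to -1.77 over the 4 comparisons (edgeR adjusted p at most 2.5e-06). The Apc transcript was not called in any comparison of Apc loss (0.12, -0.02, 0.00 and -0.03 on the log2 scale, lowest adjusted p 0.22), and counts over a whole gene do not show the deletion of a part of it. In the sequence of source codes in the labels, all 12 Apc-lost libraries lie between the 6 Apc-intact ones of day 1 and the 6 of day 2. What the codes stand for is not stated. Within each day, place in this sequence goes with Apc state, so the comparisons of Apc loss cannot tell one from the other. In 3 libraries, ApccKO replicates 2 and 3 and double knockout replicate 3 of day 1, Gm8730 stood at 0.320 to 0.578 CPM against 52.7 to 115 CPM in the other 21, and Lct at 295 to 455 CPM against 10.2 to 126 CPM in the other 9 Apc-lost libraries. Tests of the 6 genes on day 1 that use these libraries are therefore given with and without them. So are counts or median changes of most gene lists, by a choice made after seeing the data. Levels, ratios and correlations are given with all 24. Leaving them out keeps 1 ApccKO library of day 1, which is then assumed to vary like the other groups, and lets more genes of low level pass the filter. Since whole crypts were measured, fewer cells of a type and less RNA per cell cannot be told apart.

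Compared per length, in the deposited TPM (transcript counts corrected for length and scaled to the same total), Lyz1 was the most abundant of the 6 in every group, and Pla2g5 the least. In Control crypts on day 1 the mean level was 7264 TPM for Lyz1 (rank 11 among all genes), 2185 TPM for Itln1 (rank 52), 369 TPM for Ang4 (rank 372), 211 TPM for Mmp7 (rank 640), 98.4 TPM for Pla2g2a (rank 1395) and 9.39 TPM for Pla2g5 (rank 8547). The ranges of neighbours in this order did not overlap, apart from those of Ang4 with Mmp7 and of Mmp7 with Pla2g2a. By day 2 in ApccKO crypts the lower part of the order had changed: Mmp7 stood at 1199 TPM (rank 130) and Pla2g2a at 893 TPM (rank 162), both above Ang4 at 694 TPM (rank 207), and no neighbours overlapped. Pla2g5 there reached 226 TPM (rank 579), and Lyz1, at 6712 TPM (rank 12), kept its place. In double knockout crypts on day 2 the order was Lyz1 (7541 TPM), Itln1 (2041 TPM), Pla2g2a (1020.3 TPM), Ang4 (935 TPM), Mmp7 (677 TPM) and Pla2g5 (153 TPM), where Ang4 overlapped with Pla2g2a and with Mmp7. The plot of CPM by group shows the same 24 libraries for each gene on the scale used for the tests.

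**Figure D1:**
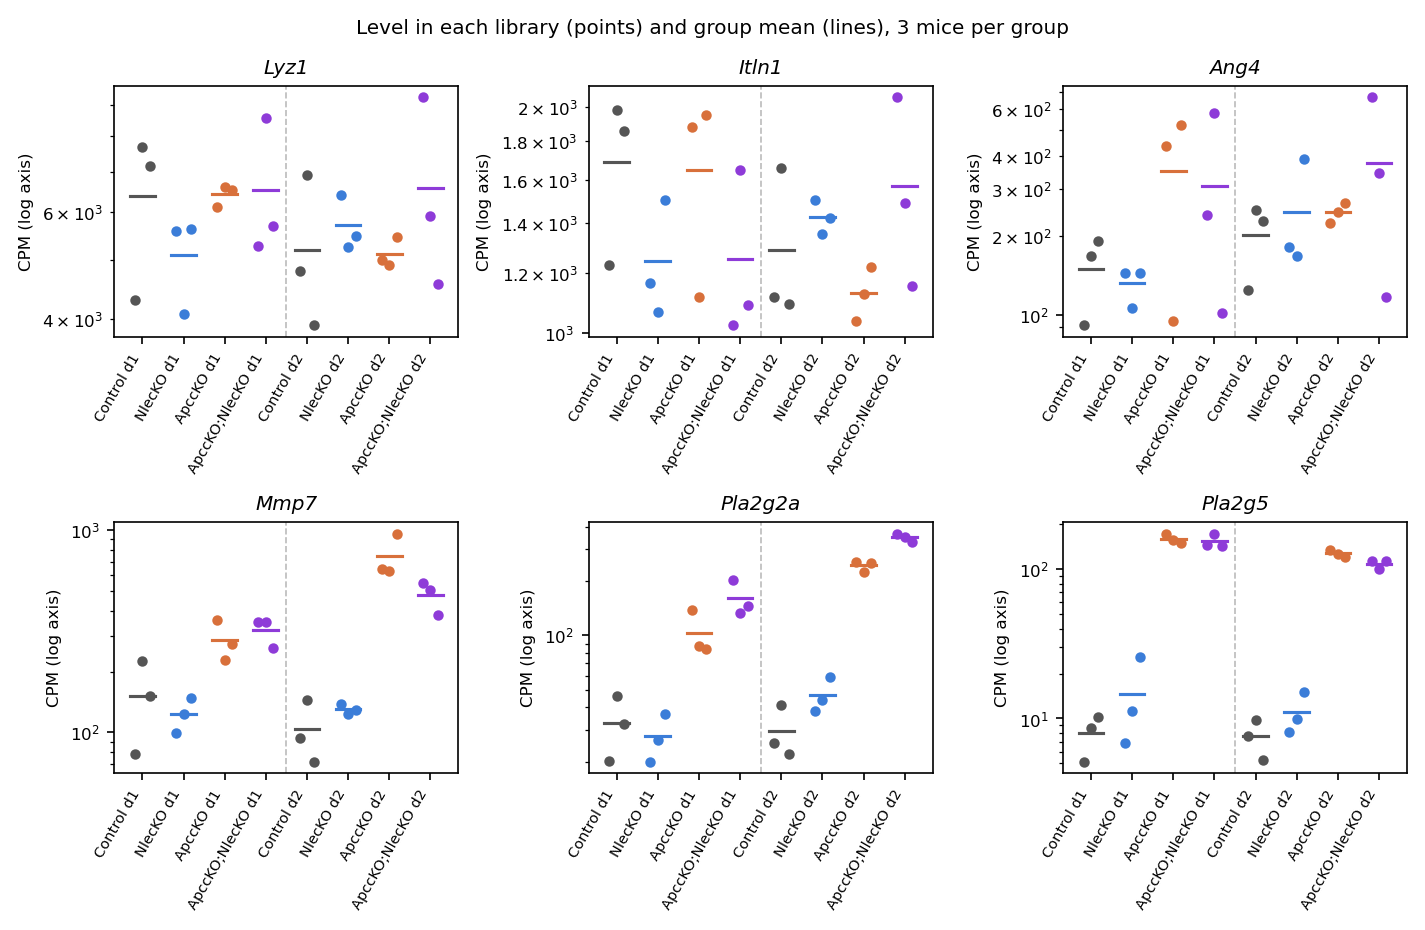
Level of each of the 6 genes in CPM (log axis) in the 24 libraries, in 8 groups by genotype and day; points are mice, lines are group means of 3 mice. Mmp7, Pla2g2a and Pla2g5 lie higher in all 12 Apc-lost libraries than in any of the 12 Apc-intact ones. How many of all genes have ranges that part in this way was not counted. The ranges of Lyz1, Ang4 and Itln1 overlap.

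The comparison of Apc-lost with Apc-intact crypts, made on each day with Nle1 present (ApccKO against Control) and with Nle1 lost (double knockout against NlecKO), asks what the loss of Apc does to these products. In each of the 4 comparisons 3 of the 6 genes were higher and 0 lower, and they were Mmp7, Pla2g2a and Pla2g5 each time. Of all genes tested, 24.7% were called higher and 25% lower with Nle1 present on day 1 (49.7% in either direction), and 28.2% and 24.4% with Nle1 lost (52.6%). On day 2 these shares were 29.2% and 29.4% with Nle1 present (58.7%), and 25.6% and 22.2% with Nle1 lost (47.8%), so the count of called members in either direction lay near that of genes at large. The median log2 fold change of the 6 was 1.07, 1.3, 1.56 and 1.24 for day 1 with Nle1 present and lost and for day 2 with Nle1 present and lost, and that of all genes tested was -0.01, 0.04, 0.02 and 0.05 in the same order, which is used for each set of 4 values from here on.

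Mmp7, the protease that processes alpha-defensin precursors, stood at 78.2, 225 and 151 CPM in the 3 Control mice of day 1 and at 358, 227 and 273 CPM in the 3 ApccKO mice (replicates 1 to 3). All 3 ApccKO values lay above the Control values, although the lowest exceeded the highest Control value by little. The means were 151 ± 73.3 and 286 ± 66.5 CPM (SD, n = 3), a log2 fold change of 0.92 ± 0.31 (adjusted p = 0.021), or 1.89 times. On day 2 the ApccKO mice had 641, 631 and 959 CPM against 93.98, 145 and 71.7 CPM in Control, with 744 ± 187 and 104 ± 37.8 CPM as means and a log2 fold change of 2.84 ± 0.33 (adjusted p = 1.3e-06), or 7.16 times. These groups were far apart. With Nle1 lost, Mmp7 went from 99.6, 124 and 148 CPM in NlecKO to 351, 352 and 262 CPM in double knockout crypts on day 1 (1.38 ± 0.31, adjusted p = 0.0014). The values of day 2 were 138, 124 and 129.7 CPM and 549, 505 and 383 CPM (1.88 ± 0.32, adjusted p = 0.00013). Again no double knockout mouse overlapped with a NlecKO mouse on either day. The call with Nle1 present on day 1 rested on single libraries: without Control replicate 1 the log2 fold change was 0.61 (adjusted p = 0.1), and without ApccKO replicate 1 it was 0.74 (adjusted p = 0.09). Without the 3 libraries that stood apart it was 1.26 (adjusted p = 0.03), and 1.52 (adjusted p = 0.0022) with Nle1 lost.

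Pla2g2a, the group IIA secreted phospholipase, had 20.2, 46.2 and 32.4 CPM in Control and 139, 87.1 and 84.5 CPM in ApccKO mice on day 1, and 25.4, 41.1 and 22.2 CPM and 256, 224 and 251 CPM on day 2. Each ApccKO library lay above every Control library of its day, and the day 2 values of ApccKO were close to one another. As means these were 32.9 ± 12.98 and 103 ± 30.6 CPM on day 1 (log2 fold change 1.65 ± 0.3, adjusted p = 0.00024, 3.14 times) and 29.5 ± 10.1 and 244 ± 16.99 CPM on day 2 (3.04 ± 0.31, adjusted p = 2.9e-07, 8.22 times). The highest Pla2g2a of any group was that of the double knockout on day 2. Its mice stood at 202, 134 and 145 CPM on day 1 and 364, 351 and 329 CPM on day 2, against 20.1, 26.5 and 36.6 CPM and 38.4, 43.8 and 58.6 CPM in NlecKO mice. The log2 fold changes were 2.53 ± 0.31 (adjusted p = 5.3e-06) and 2.89 ± 0.31 (adjusted p = 1.3e-06), or 5.78 and 7.41 times. Without the 3 libraries that stood apart the values on day 1 were 2.09 (adjusted p = 0.0009) with Nle1 present and 2.61 (adjusted p = 2.3e-05) with Nle1 lost.

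Pla2g5, the group V phospholipase, showed the largest fold changes of the 6 in each of the 4 comparisons, from the lowest starting level. Control mice had 5.14, 8.64 and 10.3 CPM on day 1 and 7.62, 9.79 and 5.301 CPM on day 2, and ApccKO mice 173, 156 and 149.8 CPM and 135, 127 and 121 CPM. NlecKO mice had 6.84, 11.1 and 25.8 CPM and 8.17, 9.88 and 14.99 CPM, and double knockout mice 145, 172 and 144 CPM and 114, 99.8 and 114 CPM. The 12 Apc-lost libraries ran from 99.8 to 173 CPM and the 12 Apc-intact ones from 5.14 to 25.8 CPM, the highest of these being NlecKO replicate 3 of day 1. With Nle1 present the log2 fold changes were 4.31 ± 0.38 (adjusted p = 2e-07) on day 1 and 4.06 ± 0.37 (adjusted p = 9.1e-08) on day 2, or 19.8 and 16.7 times. With Nle1 lost they were 3.4 ± 0.36 (adjusted p = 1.4e-06) and 3.3 ± 0.36 (adjusted p = 1.7e-06), or 10.5 and 9.85 times. Only 0.381% of the genes tested had a larger log2 fold change than Pla2g5 with Nle1 present on day 1, and at most 0.749% in the other 3 comparisons. Without the 3 libraries that stood apart the day 1 values were 4.44 (adjusted p = 1.7e-05) and 3.45 (adjusted p = 1.7e-05).

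Lyz1 and Itln1, the 2 most abundant of the 6, kept overlapping levels between the Apc-lost and Apc-intact groups compared on each day. Lyz1 stood at 4293, 7699.6 and 7146 CPM in Control and 6117, 6609 and 6526 CPM in ApccKO mice on day 1, and at 4797, 6907 and 3907 CPM and 5003, 4909 and 5459.9 CPM on day 2. NlecKO mice had 5594, 4071 and 5619.7 CPM on day 1 and 6409.5, 5267 and 5489 CPM on day 2, and double knockout mice 5285, 8567 and 5699.6 CPM and 9281, 5921 and 4560.4 CPM. ApccKO values of Lyz1 fell within the range of the Control values on both days, and the group means of all 8 groups lay between 5095 and 6587 CPM. The log2 fold changes of Lyz1 with Apc loss were 0.01 ± 0.26, 0.36 ± 0.26, -0.02 ± 0.26 and 0.2 ± 0.26, with adjusted p of 0.98, 0.26, 0.95 and 0.54. Their 95% intervals ran from -0.53 to 0.54, -0.18 to 0.89, -0.56 to 0.51 and -0.33 to 0.74, and their upper ends lay below the log2 fold change of Pla2g2a in the same comparison each time. Itln1 had 1232, 1984 and 1858 CPM in Control and 1882, 1115 and 1949.8 CPM in ApccKO mice on day 1, and 1118, 1659 and 1094 CPM and 1037, 1128 and 1223 CPM on day 2. NlecKO mice had 1166, 1067 and 1503 CPM and 1505, 1356 and 1424 CPM, and double knockout mice 1024, 1648 and 1089 CPM and 2059, 1489.6 and 1154 CPM. Its log2 fold changes with Apc loss were -0.04 ± 0.25, 0.01 ± 0.25, -0.19 ± 0.25 and 0.13 ± 0.25 (adjusted p of 0.92, 0.98, 0.53 and 0.68), with no interval beyond -0.71 or 0.66. Leaving out the 3 libraries that stood apart gave -0.04 and 0.46 for Lyz1 and 0.17 and 0.12 for Itln1 on day 1, with adjusted p of 0.23 or more.

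Ang4 was the gene with the widest spread between mice. On day 1 it stood at 91.8, 167 and 190.0 CPM in Control and 437, 94.8 and 521 CPM in ApccKO mice, so that the lowest ApccKO mouse lay near the lowest Control mouse and the other two above all Control mice. Double knockout mice had 240.0, 582 and 102 CPM on day 1 and 665, 345 and 118 CPM on day 2, against 145, 107 and 145 CPM and 181, 167 and 390.0 CPM in NlecKO mice. On day 2 ApccKO mice had 223, 245 and 267 CPM and Control mice 124, 250.3 and 228 CPM. The highest mouse stood 5.495, 5.71 and 5.66 times above the lowest in the ApccKO and double knockout groups of day 1 and the double knockout group of day 2, but 1.196 times in the ApccKO group of day 2. The log2 fold changes with Apc loss were 1.23 ± 0.66, 1.22 ± 0.66, 0.28 ± 0.65 and 0.61 ± 0.65 (adjusted p of 0.13, 0.13, 0.73 and 0.47), and the intervals, -0.17 to 2.63 and -0.18 to 2.62 on day 1, span both no change and rises of the size of Pla2g2a. Ang4 passed without ApccKO replicate 2 of day 1 (1.69, adjusted p = 0.041), and with Nle1 lost without double knockout replicate 3 (1.64, adjusted p = 0.0498). Both are among the 3 libraries that stood apart. Without all 3 the values were 1.56 (adjusted p = 0.094) and 1.65 (adjusted p = 0.03).

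**Figure D2:**
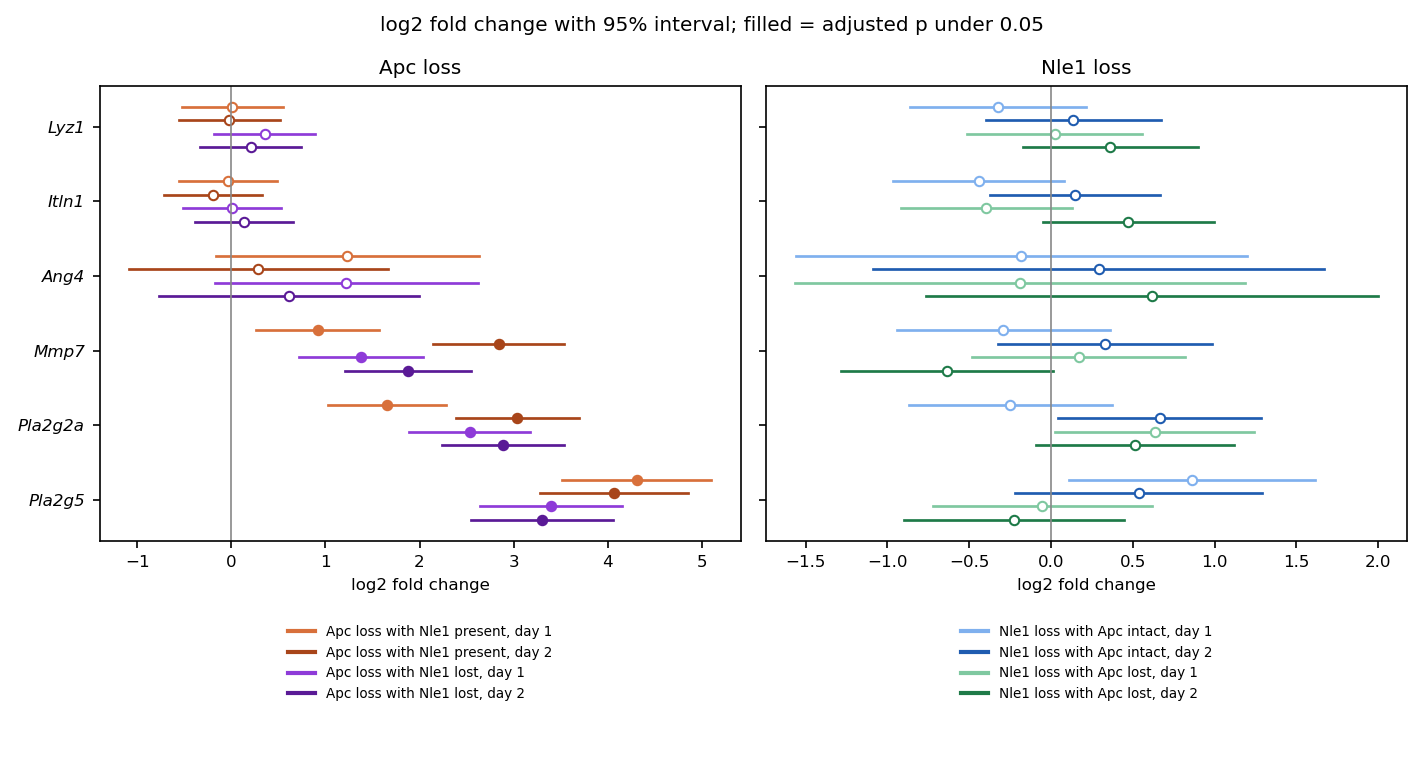
Log2 fold change of the 6 genes (horizontal axis, with 95% interval) with Apc loss (left) and Nle1 loss (right) in the 4 comparisons each; filled points passed edgeR's test at an adjusted p under 0.05. Filled points occur only for Mmp7, Pla2g2a and Pla2g5 in the left panel, and there in all 4 comparisons.

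The 3 genes that rose were also set against Lyz1 within the same library. Mmp7 stood at 2.19% to 3.73% with a median of 2.91% of the Lyz1 level in TPM in the 6 Apc-intact libraries of day 1, and at 4.24% to 8.18% with a median of 5.41% in the 6 Apc-lost ones. On day 2 the same quantity was 2.26% to 2.903% with a median of 2.61% in Apc-intact and 7.28% to 21.7% with a median of 13.1% in Apc-lost libraries. For Mmp7 the Apc-lost ratios thus lay above the Apc-intact ones on each day. Pla2g2a stood at 1.02% to 1.74% with a median of 1.42% of Lyz1 in Apc-intact and 3.43% to 9.85% with a median of 5.05% in Apc-lost libraries on day 1, and at 1.37% to 2.72% with a median of 1.54% and 9.92% to 18.2% with a median of 13.6% on day 2. Pla2g5 stood at 0.1003% to 0.483% with a median of 0.153% and 2.33% to 3.198% with a median of 2.96% on day 1, and at 0.119% to 0.294% with a median of 0.174% and 1.44% to 3.803% with a median of 2.86% on day 2. The ranges did not overlap for any of the 3 genes on either day. Ratios of other genes to Lyz1 were not computed, so how common this is was not counted. These ratios use the changes already tested for each gene, and no separate test of the ratio was made.

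**Figure D3:**
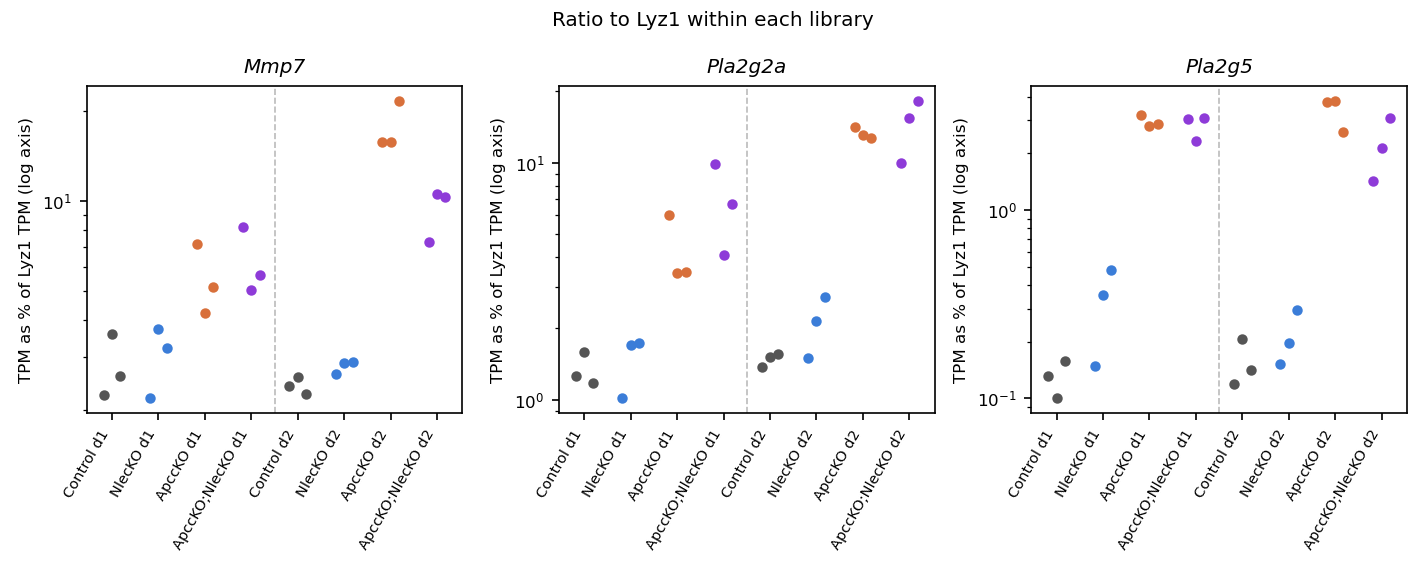
TPM of Mmp7, Pla2g2a and Pla2g5 as a percentage of the Lyz1 TPM of the same library (log axis), by genotype and day; each point is 1 mouse. For each gene and day, the 6 Apc-lost libraries lie above the 6 Apc-intact ones.

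Loss of Nle1, compared with Apc intact (NlecKO against Control) and with Apc lost (double knockout against ApccKO), addressed what Notchless contributes. None of the 6 genes passed in any of the 4 comparisons by edgeR, where 2.48% of all genes tested were called with Apc intact on day 1, 15.6% on day 2, 10.6% with Apc lost on day 1 and 34.9% on day 2. At an unadjusted p under 0.05 there were 3: Pla2g5 with Apc intact on day 1 (0.86 ± 0.36, unadjusted p = 0.027, adjusted p = 0.22), and Pla2g2a with Apc intact on day 2 (0.66 ± 0.29, 0.037 and 0.14) and with Apc lost on day 1 (0.63 ± 0.29, 0.042 and 0.18). DESeq2 called none of the 6 in these 4 comparisons either. These comparisons share their Control and ApccKO mice with those of Apc loss. The higher mean of Pla2g5 in NlecKO crypts of day 1 (14.6 ± 9.93 CPM against 8.02 ± 2.63 CPM in Control) came with 1 mouse at 25.8 CPM. With Apc lost on day 2 the ranges of the groups did not overlap for Mmp7, Pla2g5 and Pla2g2a, and none of these genes passed. How many of all genes have ranges that part in this way was not counted. Mmp7 had 641, 631 and 959 CPM in ApccKO and lower values, 549, 505 and 383 CPM, in the double knockout. The difference was -0.64 ± 0.31 on the log2 scale (unadjusted p = 0.055, adjusted p = 0.12). Pla2g5 had 135, 127 and 121 CPM and 114, 99.8 and 114 CPM, at -0.22 ± 0.32 (adjusted p = 0.63). Pla2g2a had higher values in the double knockout (256, 224 and 251 CPM in ApccKO and 364, 351 and 329 CPM in the double knockout), at 0.51 ± 0.29 on the log2 scale (adjusted p = 0.18). Fitted to only these 6 libraries the difference of Pla2g2a was 0.47 (adjusted p = 0.0008), and Pla2g5 then also passed, at -0.27 (adjusted p = 0.015). Without the 3 libraries that stood apart Nle1 loss with Apc lost on day 1 gave -0.5 to 0.27 on the log2 scale for the 6 genes (lowest adjusted p 0.62), with 0.27 (adjusted p = 0.86) for Pla2g2a.

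The intervals show which sizes the data still hold. For Lyz1 the 95% intervals of Nle1 loss were -0.86 to 0.21 and -0.4 to 0.67 with Apc intact and -0.51 to 0.56 and -0.17 to 0.9 with Apc lost, on days 1 and 2. For Itln1 they were -0.96 to 0.08, -0.38 to 0.67, -0.92 to 0.13 and -0.05 to 1.0 in the same order, and for Mmp7 -0.94 to 0.36, -0.32 to 0.98, -0.48 to 0.82 and -1.29 to 0.02. Each of these 12 intervals spans 0. Ang4 had intervals from -1.56 to 1.2 with Apc intact on day 1 to -0.76 to 2.0 with Apc lost on day 2, which hold changes of more than 2 times both ways on day 1. The interaction asks whether Apc loss acts differently with and without Nle1, and none of the 6 passed, with 0.0121% of all genes called on day 1 and 5.24% on day 2. The nearest were Pla2g2a on day 1, at 0.88 ± 0.41 (unadjusted p = 0.047, adjusted p = 0.78), and Mmp7 on day 2, at -0.96 ± 0.44 (0.041 and 0.23). DESeq2 gave 0 called members for both interactions. Without the 3 libraries that stood apart the interaction of day 1 ran over -0.99 to 0.52 on the log2 scale for the 6, with 0.52 for Pla2g2a and a lowest unadjusted p of 0.15. Lyz1, Ang4 and Itln1 had log2 values of -0.01 to 0.35 in the 2 interactions, with adjusted p of 0.66 or more. For Pla2g5 the interaction was -0.91 ± 0.48 on day 1 (adjusted p = 0.81) and -0.76 ± 0.48 on day 2 (0.41).

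Crypts of day 2 were compared with those of day 1 within each genotype. In ApccKO crypts Mmp7 and Pla2g2a were higher on day 2 than on day 1, and Pla2g5, already high on day 1, did not pass between days. In ApccKO mice 2 of the 6 were higher on day 2 (5.84% of all genes were higher and 11.3% called in either direction): Mmp7 went from 286 ± 66.5 to 744 ± 187 CPM (1.38 ± 0.31, adjusted p = 0.0089, 2.601 times) and Pla2g2a from 103 ± 30.6 to 244 ± 16.99 CPM (1.24 ± 0.29, adjusted p = 0.011, 2.36 times). Pla2g5 went from 159.5 ± 11.9 to 128 ± 7.38 CPM, a log2 difference of -0.32 ± 0.32 with an interval of -0.99 to 0.35 (adjusted p = 0.57). In double knockout mice 1 of the 6 was higher (3.46% of all genes, 6.49% in either direction): Pla2g2a went from 160.4 ± 36.7 to 348 ± 17.7 CPM (1.12 ± 0.29, adjusted p = 0.028). Mmp7 there went from 321 ± 51.6 to 479 ± 86.2 CPM (0.57 ± 0.31, adjusted p = 0.32), and Pla2g5 from 154 ± 15.8 to 109 ± 8.26 CPM (-0.49 ± 0.32, adjusted p = 0.43). None of the 6 passed between days in Control or NlecKO mice, where 0.163% and 0.0362% of all genes were called; in NlecKO mice Pla2g2a had 0.76 ± 0.3 (unadjusted p = 0.019, adjusted p = 0.42). The 3 libraries that stood apart are all of day 1, and without them no member passed between days: in ApccKO mice Mmp7 had 1.04 (adjusted p = 0.43) and Pla2g2a 0.8 (adjusted p = 0.52), and in double knockout mice Pla2g2a had 1.05 (adjusted p = 0.08). Single libraries ended these calls too. In ApccKO mice that of Mmp7 was lost without replicate 2 of day 1 (1.23, adjusted p = 0.057) or replicate 3 of day 2 (1.14, adjusted p = 0.052), and that of Pla2g2a without replicate 2 (1.12, adjusted p = 0.064) or 3 (1.1, adjusted p = 0.064) of day 1. In double knockout mice that of Pla2g2a was lost without replicate 2 (1.0, adjusted p = 0.15) or 3 (1.05, adjusted p = 0.072) of day 1, and without replicate 1 (1.08, adjusted p = 0.067), 2 (1.11, adjusted p = 0.07) or 3 (1.15, adjusted p = 0.089) of day 2.

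The change between days in the effect of Apc loss was tested directly. With Nle1 present, Mmp7 alone of the 6 passed (0.526% of all genes were called in this direction and 1.13% in either): its rise with Apc loss was larger on day 2 by 1.92 ± 0.44 (adjusted p = 0.043), or 3.79 times. Control Mmp7 had a mean of 151 CPM on day 1 and 104 CPM on day 2 (-0.54 ± 0.31, adjusted p = 0.59), and this enters the difference. The call was lost in 13 of 20 other settings, among them without the 3 libraries that stood apart (1.58, adjusted p = 0.68), and without any 1 of 9 of the 12 libraries compared (1.52 to 2.02, adjusted p of 0.06 to 0.13), namely Control replicates 2 and 3 and ApccKO replicates 2 and 3 of day 1, and Control replicates 1 and 3 and ApccKO replicates 1, 2 and 3 of day 2. With DESeq2 it held and Pla2g2a passed as well (1.37, adjusted p = 0.024), as it did by edgeR without Control replicate 2 of day 2 (1.71, adjusted p = 0.04). With all libraries edgeR gave Pla2g2a 1.39 ± 0.41 (adjusted p = 0.12) and Pla2g5 -0.25 ± 0.49 (adjusted p = 0.9). With Nle1 lost none passed (0.29% of all genes called), with 0.5 ± 0.44 (adjusted p = 0.73) for Mmp7 and 0.36 ± 0.41 (adjusted p = 0.81) for Pla2g2a. Lyz1, Ang4 and Itln1 had log2 values of -0.55 to 0.9 in the 4 comparisons of day 2 with day 1. Their edgeR adjusted p was 0.17 or more. Among these genes, ranges did not overlap between days for Lyz1 in ApccKO mice and for Ang4 in NlecKO mice. Lyz1, Ang4 and Itln1 had log2 values of -0.95 to 0.12 in the day differences of Apc loss, with adjusted p of 0.74 or more. The effect of Nle1 loss differed between days for none of the 6, with Apc intact (0.00604% of all genes called) or lost (0.435%).

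Ordered by group mean, the 4 Apc-intact groups came lowest for Mmp7, Pla2g2a and Pla2g5 alike, with ranges that overlapped between neighbours. For Mmp7 the ApccKO and double knockout groups of day 1 followed, overlapping with each other, then the double knockout and at the top the ApccKO group of day 2, each clear of the group before. Pla2g2a had the same order on day 1 but ended with ApccKO and then the double knockout on day 2, again each clear of the one before. Pla2g5 ran the other way: the double knockout and then the ApccKO group of day 2 came before the 2 groups of day 1, which overlapped at the top. For Lyz1, Ang4 and Itln1 all neighbours overlapped. Pooled over the 8 groups, the 6 genes varied more between mice of a group than most genes did. The SD of log2 CPM around the group means was 0.33 for Lyz1, 0.33 for Itln1, 0.38 for Pla2g2a, 0.4 for Mmp7, 0.45 for Pla2g5 and 0.88 for Ang4. Of 10745 genes with a mean of at least 5 CPM, 89.4% to 94.8% had a smaller SD than the first 5 of these, and 99.2% a smaller one than Ang4. The spread was not even over groups. Pla2g5 had ratios of highest to lowest mouse of 1.83 to 3.77 in the Apc-intact groups and 1.12 to 1.19 in the Apc-lost ones. For Pla2g2a these ratios were 1.53 to 2.28 and 1.11 to 1.64.

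Deviations of each mouse from its group mean show which products varied together from mouse to mouse, apart from genotype and day. Over 24 libraries 15 pairs were computed, with p from 100000 permutations within groups and Benjamini-Hochberg adjustment over the 15. The 2 libraries called farthest out were those farthest from the median of the first gene named, which was Pla2g2a for the phospholipases. The second gene played no part in that choice. Lyz1 and Itln1 deviated together (r = 0.81 and rho = 0.8, permutation p = 0.00075 and 0.0011, adjusted 0.0042 and 0.006, and r = 0.75 without the 2 libraries farthest out), as did Ang4 and Itln1 (r = 0.82 and rho = 0.77, permutation p = 0.0012 and 0.0014, adjusted 0.0043 and 0.006, and r = 0.74 without the 2 libraries farthest out). Mmp7 followed Pla2g2a (r = 0.81 and rho = 0.74, permutation p = 0.00084 and 0.0016, adjusted 0.0042 and 0.006, and r = 0.71 without the 2 libraries farthest out) and also Itln1 (r = 0.75 and rho = 0.77, permutation p = 0.00056 and 0.0011, adjusted 0.0042 and 0.006, and r = 0.72 without the 2 libraries farthest out). The 2 phospholipases went together (r = 0.73 and rho = 0.71, permutation p = 0.0044 and 0.0039, adjusted 0.013 and 0.012, and r = 0.74 without the 2 libraries farthest out). Lyz1 and Pla2g2a did not pass (r = 0.36 and rho = 0.3, permutation p = 0.2 and 0.26, adjusted 0.2 and 0.26, and r = 0.27 without the 2 libraries farthest out). In all, 10 of 15 pairs had an adjusted p of r under 0.05 by permutation. The share among pairs of all genes was not counted. Every r was above 0, and the lowest was that of Pla2g5 with Ang4 (0.24). The points of all pairs share libraries and depth.

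**Figure D4:**
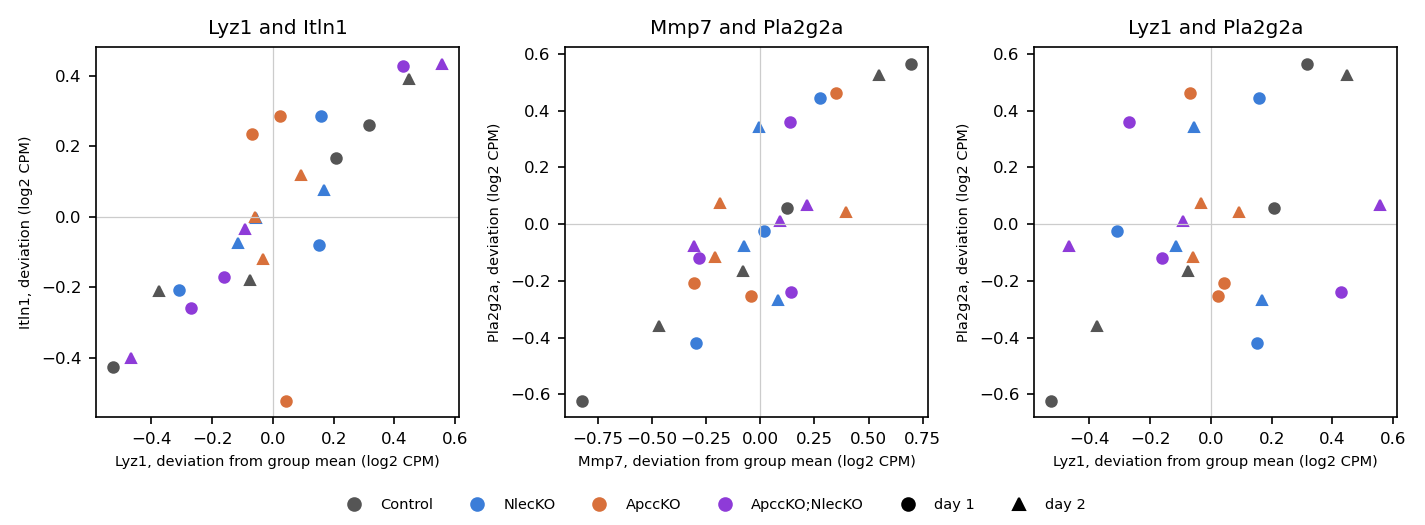
Deviation of log2 CPM from the group mean for 3 pairs of genes, 1 point per library (24), with Apc-intact and Apc-lost libraries marked. Lyz1 with Itln1 (r = 0.81) and Mmp7 with Pla2g2a (r = 0.81) line up, and Lyz1 with Pla2g2a (r = 0.36) scatters more widely.

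The genes most like each member were found by the correlation of log2 CPM over the 24 libraries, as a description across libraries that share genotype and depth. For Lyz1 they were Defa17 (r = 0.857), Defa3 (r = 0.826), Defa-rs7 (r = 0.814), and for Itln1 Defa17 (r = 0.934), Defa3 (r = 0.913), Defa-rs7 (r = 0.865), all alpha-defensin genes of the Paneth cell. For Mmp7 they were Afap1 (r = 0.968), Habp2 (r = 0.968), Fzd9 (r = 0.958); for Pla2g2a Abcc1 (r = 0.981), Myo1c (r = 0.980), Gusb (r = 0.980); and for Pla2g5 Rps3a (r = 0.979), Soat1 (r = 0.977), Bmp7 (r = 0.977). No defensin was among those 9. For Ang4 they were Rapgef3 (r = 0.784), Fam173b (r = 0.740), Bhlha15 (r = 0.733). With group means removed, the nearest genes were Tmed6 (r = 0.890), Defa17 (r = 0.890), Defa3 (r = 0.885) for Lyz1 and Clps (r = 0.929), Defa17 (r = 0.929), Defa3 (r = 0.910) for Itln1. For Mmp7 they were Dnajc10 (r = 0.886), Habp2 (r = 0.877), Saal1 (r = 0.872), for Pla2g2a Slc7a6 (r = 0.911), Lca5 (r = 0.870), Pla2g2f (r = 0.863), for Pla2g5 Aimp2 (r = 0.859), Surf6 (r = 0.859), Syde1 (r = 0.853) and for Ang4 Rpl30 (r = 0.849), Ogdhl (r = 0.824), Fam173b (r = 0.823). Among these the gene nearest by place to a member was Pla2g2f, another secreted phospholipase gene of chromosome 4.

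The alpha-defensins, the antimicrobial peptides that MMP7 activates, were listed as markers of the same cell. Of 19 listed genes 9 were in the table and 8 were tested, and with Apc loss 2, 2, 1 and 2 of the 8 were higher and none lower, with medians of -0.04, 0.32, 0.07 and 0.13. Those called higher were mostly genes of low level: Defa20 passed in 3 of the 4 (2.94 ± 1.11 on day 1 with Nle1 present, adjusted p = 0.033), and Defa5 on day 2 (0.92 ± 0.35, adjusted p = 0.029 and, with Nle1 lost, 1.18 ± 0.35, adjusted p = 0.0098). Defa23 passed on day 1 with Nle1 lost (1.21 ± 0.48, adjusted p = 0.041). Defa21, listed at 0 in all 3 Control libraries of day 1, was called there too. The abundant Defa17 (-0.13, 0.08, -0.01 and 0.16) and Defa3 (-0.01, -0.02, 0.05 and 0.11) passed in none. Leaving out the 3 libraries that stood apart, 1 and 2 of 9 tested were higher on day 1 and 0 lower, and Defa21 no longer passed (adjusted p = 0.09). Summed over the list, defensins stood at 2578 to 5208 CPM on day 1 and 2001 to 3909 CPM on day 2 in Apc-intact crypts, and 2412 to 4278 CPM and 2756 to 5037 CPM in Apc-lost crypts. Of 8 other secreted products tested (10 listed for the cell), 0, 0, 0 and 1 were higher and 3, 5, 4 and 4 lower. Their medians were -0.97, -1.73, -1.01 and -0.88. The 1 called higher is not named here, and the list shares Zg16 with that of goblet cells. Shares over all genes tested were 24.7%, 28.2%, 29.2% and 25.6% higher and 25%, 24.4%, 29.4% and 22.2% lower. The C-type lectin gene Reg3a fell by 3.24 on day 1 with Nle1 present (adjusted p = 0.00019) and the mucin-like glycoprotein gene Dmbt1 by 2.78 (adjusted p = 0.00013), both genes that other crypt cells express as well. Without those 3 libraries 3 and 3 were lower on day 1, with Reg3a at -3.31 (adjusted p = 0.014) and Dmbt1 at -2.32 (adjusted p = 0.007) with Nle1 present. The colipase gene Clps, by contrast, ranged over -0.12, -0.26, -0.52 and -0.46 and passed in none.

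Secreted phospholipases A2 form a family whose members release fatty acids from phospholipids outside the cell, and 6 of them lie next to one another on chromosome 4. In the RefSeq order (GRCm38.p6) these are Pla2g2c, Pla2g2f, Pla2g2d, Pla2g5 and Pla2g2e, with Pla2g2a inside the span of Pla2g5. This neighbourhood was singled out after its values were seen. Shares over all genes tested were 24.7%, 28.2%, 29.2% and 25.6% higher and 25%, 24.4%, 29.4% and 22.2% lower with Apc loss. With Apc loss 4, 4, 6 and 5 of the 6 were higher and none lower, with medians of 1.69, 1.90, 2.78 and 2.87, 2 of the 6 being the members above. Pla2g2f rose from 25.04 ± 4.88 CPM in Control to 76.5 ± 30.8 CPM in ApccKO crypts on day 1 (1.61 ± 0.28, adjusted p = 0.00019) and from 20.6 ± 4.98 to 118 ± 17.1 CPM on day 2 (2.52 ± 0.29, adjusted p = 1.2e-06), with 1.43 ± 0.28 (adjusted p = 0.00044) and 1.76 ± 0.28 (adjusted p = 7.9e-05) when Nle1 was lost. Pla2g2d rose from a lower level, 2.24 ± 0.859 CPM in Control to 7.45 ± 2.28 CPM in ApccKO crypts on day 1 (1.73 ± 0.31, adjusted p = 0.00015) and to 10.99 ± 1.05 CPM on day 2 (2.25 ± 0.3, adjusted p = 3.6e-06). Its highest group was the double knockout of day 2, at 24.04 ± 4.44 CPM. Pla2g2e and Pla2g2c were low, at no more than 2.55 and 1.44 CPM in any library. Pla2g2e passed on day 2 (3.16 ± 0.7, adjusted p = 0.00065 and 2.85 ± 0.53, adjusted p = 0.0002), and Pla2g2c on day 2 with Nle1 present (1.42 ± 0.47, adjusted p = 0.014). Leaving out the libraries that stood apart, 5 and 4 of the 6 were higher on day 1 with Nle1 present and lost. Pla2g2f was at 2.15 (adjusted p = 5.7e-05) and Pla2g2d at 2.18 (adjusted p = 0.00047) in the first. Pla2g2c passed there too (2.01, adjusted p = 0.03). Pla2g2a and Pla2g5 shared no word of 31 bases with any other transcript of a mouse reference (GENCODE M21), so their counts were not split between near copies there. Whether the counting used the strand is not given in the sources used here.

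Genes beside the phospholipases were read too. Ubxn10, which overlaps Pla2g2c and is no phospholipase, was higher in all 4 comparisons (1.02 ± 0.31, adjusted p = 0.01 on day 1 with Nle1 present and 1.76 ± 0.31, adjusted p = 7.3e-05 on day 2). Of the 5 tested genes within 200 kb on either side (Otud3, Rnf186, Tmco4, Htr6 and Nbl1), 0, 0, 0 and 1 were higher and 3, 3, 4 and 4 lower, with medians of -0.75, -1.34, -0.80 and -0.98. The 1 called higher was Otud3, at 0.31 ± 0.12 (adjusted p = 0.04). Phospholipase genes on other chromosomes went several ways. Pla2g12a, a group XII enzyme, rose in all 4 (1.09 ± 0.11, adjusted p = 2.9e-07 with Nle1 present on day 1, from 22.9 ± 0.995 to 48.9 ± 3.91 CPM), while Pla2g12b, which is expressed in enterocytes and liver, fell in all 4 (-1.88 ± 0.43, adjusted p = 0.0016 in the same comparison). Pla2g3 passed in none, and Pla2g10 was lower on day 1 with Nle1 present (-0.53 ± 0.16, adjusted p = 0.012). Over the listed phospholipases and their receptor outside the members, 9 tested of 10, 3, 4, 5 and 5 were higher and 2, 1, 1 and 1 lower. The receptor gene Pla2r1 stood apart from these by its response to Nle1: with Apc lost it was higher in double knockout than in ApccKO crypts on day 1 (1.81 ± 0.28, adjusted p = 0.00039) and day 2 (0.675 ± 0.157 to 2.55 ± 0.505 CPM, 1.91 ± 0.27, adjusted p = 2.3e-05), and its interaction passed on day 2 (1.58 ± 0.43, adjusted p = 0.039). With the 3 libraries left out, the response of Pla2r1 on day 1 no longer passed (1.78, adjusted p = 0.14), nor did Pla2g10 (-0.43, adjusted p = 0.2). Ubxn10 (1.32, adjusted p = 0.015), Pla2g12a (1.23, adjusted p = 1.2e-05) and Pla2g12b (-2.91, adjusted p = 0.0011) still did with Nle1 present. Of the 5 flanking genes 1 and 3 were lower on day 1 with Nle1 present and lost. On day 2 Pla2g2d (1.13 ± 0.28, adjusted p = 0.0033) and Pla2g2e (1.55 ± 0.47, adjusted p = 0.014) were higher with Nle1 loss in Apc-lost crypts too.

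**Figure D5:**
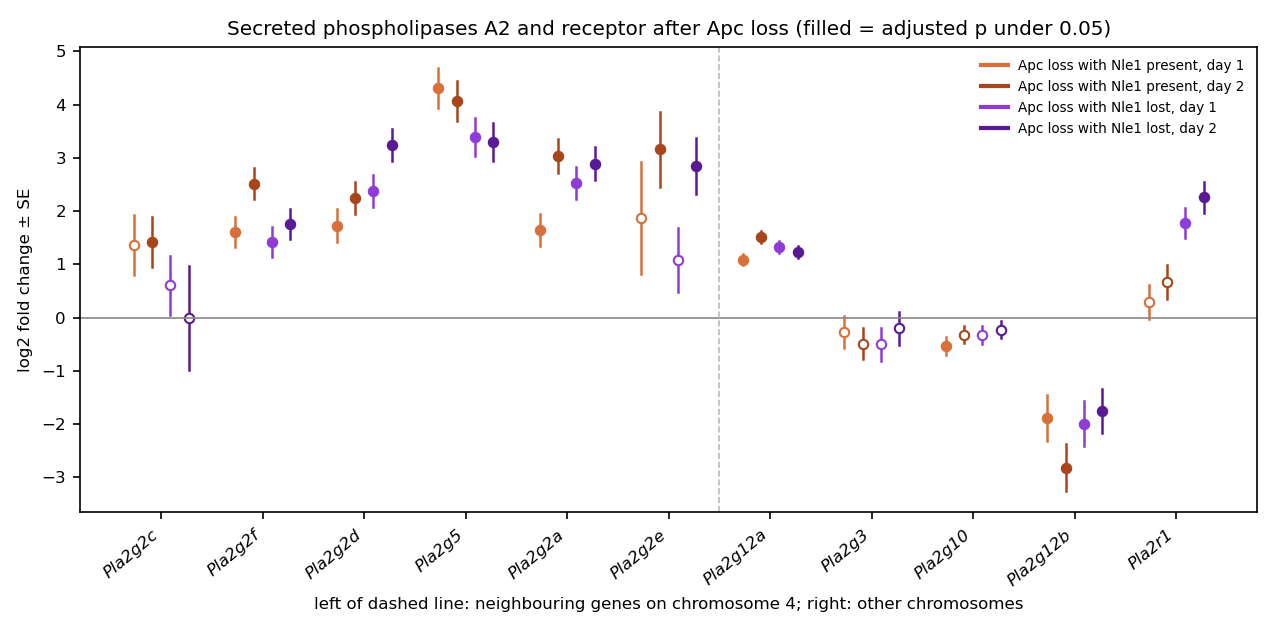
Log2 fold change (± SE) with Apc loss in 4 comparisons for the secreted phospholipase genes of chromosome 4 in their order (left of the divider) and for those on other chromosomes with the receptor Pla2r1 (right). All 6 genes of chromosome 4 have values of 0.00 or more in each comparison, the lowest being Pla2g2c at 0.00 with Nle1 lost on day 2, whereas Pla2g12b lies below 0 and Pla2g12a above it.

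Mmp7 was not the only metalloproteinase gene to rise. Shares over all genes tested were 24.7%, 28.2%, 29.2% and 25.6% higher and 25%, 24.4%, 29.4% and 22.2% lower with Apc loss. Of 13 tested genes of metalloproteinases and their inhibitors (21 listed, Mmp7 not counted), 4, 5, 7 and 5 were higher and 2, 1, 2 and 0 lower with Apc loss, with medians of 0.55, 0.32, 0.79 and 0.18. The membrane-bound Mmp14 (1.22, 1.22, 2.41 and 1.74) and Mmp15 (1.09, 1.37, 1.75 and 1.45) passed in all 4, with edgeR adjusted p of at most 8.2e-06. When the 3 libraries that stood apart were left out, 5 and 5 of 17 tested were higher and 1 and 1 lower on day 1. The inhibitor gene Timp1 had 3.78 ± 0.5 (adjusted p = 2.6e-06) on day 2 with Nle1 present. Among relatives of Ang4, ribonucleases of the A family, 3, 2, 4 and 2 of 5 tested of 12 listed were higher and none lower. Angiogenin itself, Ang, rose in all 4 (0.83 ± 0.24, adjusted p = 0.0079, 1.08 ± 0.24, adjusted p = 0.0011, 1.03 ± 0.24, adjusted p = 0.001 and 1.0 ± 0.24, adjusted p = 0.0022), where Ang4 passed in none. Ang passed on day 1 without the 3 libraries as well (0.99, adjusted p = 0.02 and 1.26, adjusted p = 0.00066), where 2 and 2 of the 5 were higher and 1 and 1 lower. The test of a difference between the genes was not made. Ang4 shared 13.8% of its words of 31 bases with other genes, most with Ang5, which stood at no more than 0.0515 CPM in any library.

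Lyz2, the lysozyme gene of macrophages and other myeloid cells, is the near copy of Lyz1. Of the 1233 words of 31 bases in Lyz1 transcripts, 34.2% occur in Lyz2. The promoter windows of both were identical at 201 of 300 positions, and at 115 of the last 120. Lyz2 was counted at 1.71 to 13.9 CPM, far under Lyz1 in every library. It fell with Apc loss in 3 of 4 comparisons (-0.94 ± 0.36, adjusted p = 0.035, -1.77 ± 0.36, adjusted p = 0.00027 and, with Nle1 lost on day 2, -0.88 ± 0.33, adjusted p = 0.036). On day 1 the call of Lyz2 was lost without the 3 libraries that stood apart (-0.76, adjusted p = 0.27). Reads of shared words are divided between both genes by estimation, so the counts of Lyz2 at this level carry that uncertainty. In double knockout crypts of day 2 Lyz2 was higher than in ApccKO crypts (1.45 ± 0.36, adjusted p = 0.0035). Relatives of Itln1 were not analysed here. Mmp7 shared 9.06% of its words with AV064505, counted at no more than 0.997 CPM, and Itln1 3.8% with other genes.

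Genes that direct Paneth cell formation changed in both directions with Apc loss. Of 20 tested, 5, 6, 8 and 8 were higher and 5, 6, 7 and 5 lower. Shares over all genes tested were 24.7%, 28.2%, 29.2% and 25.6% higher and 25%, 24.4%, 29.4% and 22.2% lower. Sox9, a Wnt target needed for Paneth cells, rose in all 4 (2.1, 2.0, 2.08 and 1.97), as did the receptor genes Ephb3 (2.32, 1.95, 2.7 and 2.05) and Ephb2 (0.97, 1.0, 1.13 and 0.75), which position cells at the crypt base. Others on the list fell: the Wnt receptor gene Fzd5 (-1.6, -1.86, -2.66 and -1.97) and the granule secretion gene Vamp8 (-0.88, -0.72, -0.8 and -0.55), with adjusted p of at most 0.0023 for these 5 genes. Leaving out the 3 libraries, 5 and 6 were higher and 3 and 6 lower on day 1, and these 5 genes still passed. Of 8 signals that Paneth cells give to stem cells, 1, 1, 3 and 2 were higher and 1, 2, 3 and 4 lower, with Wnt3 up (1.39, 1.56, 2.06 and 1.41, adjusted p at most 1e-05) and the Notch ligand gene Dll1 at -0.42, -0.85, -1.0 and -1.08.

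Markers of other crypt cells moved with Apc loss as well, and their part in the results above was not tested. Shares over all genes tested were 24.7%, 28.2%, 29.2% and 25.6% higher and 25%, 24.4%, 29.4% and 22.2% lower. For enterocyte, goblet cell, enteroendocrine, tuft and lymphocyte markers, only the counts called lower are given. Stem cell markers were higher for 12, 12, 11 and 10 of 12 and lower for 0, 0, 0 and 1, and their sum stood at 1652 to 2644 CPM on day 1 and 1458 to 2785 CPM on day 2 in Apc-intact crypts, and 4056 to 8083 CPM and 2181 to 5737 CPM in Apc-lost crypts. Enterocyte markers were lower for 11, 13, 16 and 16 of 16, with sums of 15137 to 51268 CPM on day 1 and 9927 to 41033 CPM on day 2 in Apc-intact crypts, and 3692 to 17622 CPM and 2853 to 9100.1 CPM in Apc-lost crypts. Goblet cell markers, of a cell that also makes intelectin, were lower for 6, 6, 7 and 7 of 12, with sums of 9454 to 11639 CPM on day 1 and 11736 to 14082 CPM on day 2 in Apc-intact crypts, and 4402 to 6381 CPM and 2517 to 7021 CPM in Apc-lost crypts. Enteroendocrine markers were lower for 10, 11, 11 and 11 of 14 and tuft markers for 5, 8, 9 and 9 of 9. Lymphocyte markers were lower for 9, 8, 9 and 8 of 11, with sums of 278 to 531 CPM on day 1 and 363 to 640.1 CPM on day 2 in Apc-intact crypts, and 80.4 to 169 CPM and 50.2 to 118 CPM in Apc-lost crypts. Macrophage and neutrophil markers, of cells known for Pla2g5, were higher for 1, 2, 1 and 2 and lower for 6, 1, 7 and 3 of 9, with sums of 17.2 to 32.1 CPM on day 1 and 23.9 to 45.4 CPM on day 2 in Apc-intact crypts, and 10.3 to 25.98 CPM and 10.96 to 43.2 CPM in Apc-lost crypts. Stromal and endothelial markers, 6 tested of 12, were higher for 0, 0, 1 and 0 and lower for 0, 0, 1 and 1, and their sums were 8.14 to 38.2 CPM on day 1 and 9.26 to 39.99 CPM on day 2 in Apc-intact crypts, and 7.52 to 30.0 CPM and 5.55 to 27.96 CPM in Apc-lost crypts. Pancreatic acinar markers, 6 tested of 8 and known for other secreted phospholipases, summed to 4.39 to 14.7 CPM on day 1 and 4.38 to 34.05 CPM on day 2 in Apc-intact crypts, and 4.74 to 13.6 CPM and 10.6 to 18.3 CPM in Apc-lost crypts. Without the 3 libraries that stood apart, stem cell markers had median log2 fold changes of 1.76 and 1.67 on day 1 (Nle1 present and lost). In the same order the medians were -2.68 and -2.55 for enterocyte, -0.35 and -0.35 for goblet cell and -0.74 and -1.18 for enteroendocrine markers. Tuft markers had -1.22 and -1.72, lymphocyte markers -2.06 and -1.44, and macrophage and neutrophil markers -0.84 and -0.42. None of the defining cell type markers was at 0 in all 24 libraries. The defensin sums given above overlapped between Apc-intact and Apc-lost crypts on both days.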

How the data were processed

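The authors deposited estimated counts and TPM per gene, and the submitters' processing notes list kallisto 0.43 and the build mm9. The sources used here do not give the annotation release or the strand setting. A table of normalised values was left aside.

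The deposited estimated counts, rounded, entered edgeR 4.0.16 in R 4.3.3: TMM scaling, filterByExpr with a minimum count of 10, and a robust quasi-likelihood fit with 1 mean per group over all 24 libraries. P-values were adjusted by Benjamini-Hochberg over the 16552 genes tested, with a threshold of 0.05. CPM are counts scaled to TMM library sizes, and log2 CPM had a prior count of 2. The biological coefficient of variation came to 17.6%. TPM as deposited served for levels between genes. DESeq2 1.42.0 was an alternative, and the fit was tested on simulated data. RefSeq tables (GRCm38.p6, another build than that of the files) gave promoters, matched for 5 of 6 members, and the order of genes.

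The members, lists and comparisons were chosen with earlier results of these data known. By the rule for naming genes, all 6 members were named, the 3 genes most like each, and up to 4 called genes of a list by smallest p. Sample columns without a map numbered 0.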

Additional observations from a re-analysis of the deposited data

Results flagged for a closer look

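The rise of Mmp7 with Apc loss differed between the days when Nle1 was present. The log2 fold change of ApccKO against Control was 0.92 ± 0.31 on day 1 and 2.84 ± 0.33 on day 2, and the test of the difference gave 1.92 ± 0.44 (edgeR adjusted p = 0.043). All 3 ApccKO mice of day 2 stood above all 3 of day 1. Leaving out the 3 libraries that stood apart, 2 of which are ApccKO libraries of day 1, gave 1.58 (adjusted p = 0.68), and the call was lost as well without any 1 of 9 of the 12 libraries compared (1.52 to 2.02, adjusted p of 0.06 to 0.13).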

How the results depend on the processing

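Each value was also computed with DESeq2, with DESeq2 size factors, without the filter on low counts, and with one at 2 CPM in 3 libraries. Further settings were a replicate block, sex as a term, only the groups compared, and leaving out each library or the 3 that stood apart. The calls of Pla2g2a and Pla2g5 with Apc loss held in every setting, with log2 fold changes of 1.40 to 3.36 and 3.06 to 4.55. Those of Mmp7 held except with Nle1 present on day 1, where 3 of 14 settings lost them (0.61 to 1.32, adjusted p up to 0.10). Over all comparisons and settings, 195 values of members called higher kept their call and 29 lost it, and none changed sign. TPM was compared only for 72 ratios of group means, without a test. TPM in place of CPM moved a log2 ratio by at most 0.43.

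Counts of called members changed as follows, and the cause was not tested. With Apc loss on day 1, where 3 were called, 2 to 4 were with 1 library left out when Nle1 was present and 3 to 4 when it was lost. Between days in ApccKO mice 2 were called, against 0 without the 3 libraries that stood apart, 4 in the fit to only the groups compared, and 0 to 2 with 1 library left out. In double knockout mice 1 was called, against 0 with no filter, 0 without the 3 libraries, 2 in the fit to only the groups compared, and 0 to 1 with 1 library left out. For the day difference of Apc loss with Nle1 present 1 was called, against 0 with no filter, 0 with the replicate block, 0 without the 3 libraries, 0 in the fit to only the groups compared, 2 with DESeq2, and 0 to 2 with 1 library left out. For Nle1 loss with Apc lost on day 2 the fit to only the groups compared called 2 against 0. Replicate numbers gave little pairing of mice across groups. Deviations of same-numbered libraries correlated at -0.26 to 0.41, above 0.1 in 11 of 36 pairs of libraries. In 13 of 36 the library correlated best with its own number. Sex was inferred from genes of the Y chromosome. Every group held both sexes, and replicate 1 was male in all groups but ApccKO of day 1. With the block the call that ended was that of Mmp7 in the day difference of Apc loss with Nle1 present (1.91, adjusted p = 0.063).

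Signs changed only for values that had passed no test. They were as follows. With the DESeq2 size factors, Lyz1 in Nle1 loss (Apc lost, day 1) (-0.00033) and Itln1 in Apc loss (Nle1 lost, day 1) (-0.019). Without the 3 libraries, Mmp7 in Nle1 loss (Apc lost, day 1) (-0.034), Lyz1 in Apc loss (Nle1 present, day 1) (-0.043), Itln1 in Apc loss (Nle1 present, day 1) (0.17), Ang4 in the interaction of day 1 (0.087), Itln1 in the interaction of day 1 (-0.056), Lyz1 in day 2 against 1 in double knockout mice (-0.075), Ang4 in day 2 against 1 in double knockout mice (-0.13), Lyz1 in the day difference of Apc loss (Nle1 present) (0.023) and Pla2g2a in the day difference of Nle1 loss (Apc lost) (0.24). With DESeq2, Lyz1 in Nle1 loss (Apc lost, day 1) (-0.00069) and Itln1 in Apc loss (Nle1 lost, day 1) (-0.016). With the stricter filter, Itln1 in Apc loss (Nle1 lost, day 1) (-0.015), Itln1 in the interaction of day 1 (-0.0027) and Lyz1 in Apc loss (Nle1 present, day 2) (0.028). In the fit to only the groups compared, Itln1 in Apc loss (Nle1 lost, day 1) (-0.010). With the replicate block, Ang4 in the interaction of day 1 (0.0050).

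With 1 library left out, the log2 values that crossed 0 had these ranges. For Nle1 loss (Apc intact, day 1) Mmp7 -0.60 to 0.11, Pla2g2a -0.50 to 0.074 and Ang4 -0.43 to 0.026; for Nle1 loss (Apc lost, day 1) Lyz1 -0.23 to 0.14 and Ang4 -1.04 to 0.23; for Apc loss (Nle1 present, day 1) Lyz1 -0.21 to 0.17 and Itln1 -0.22 to 0.20; for Apc loss (Nle1 lost, day 1) Itln1 -0.22 to 0.17. For the interaction of day 1 Ang4 -0.86 to 0.40 and Itln1 -0.20 to 0.23; for Nle1 loss (Apc intact, day 2) Ang4 -0.21 to 0.51 and Lyz1 -0.032 to 0.40; for Nle1 loss (Apc lost, day 2) Ang4 -0.084 to 1.04; for Apc loss (Nle1 present, day 2) Lyz1 -0.19 to 0.24 and Itln1 -0.30 to 0.031. For Apc loss (Nle1 lost, day 2) Lyz1 -0.13 to 0.41, Ang4 -0.091 to 1.11 and Itln1 -0.11 to 0.31; for the interaction of day 2 Lyz1 -0.11 to 0.43, Ang4 -0.38 to 0.82 and Pla2g2a -0.47 to 0.040; for day 2 against 1 in Control mice Pla2g2a -0.47 to 0.17 and Pla2g5 -0.32 to 0.15; for day 2 against 1 in NlecKO mice Mmp7 -0.059 to 0.22 and Pla2g5 -0.73 to 0.30. For day 2 against 1 in double knockout mice Lyz1 -0.31 to 0.26 and Ang4 -0.41 to 1.13; for the day difference of Apc loss (Nle1 present) Lyz1 -0.20 to 0.23 and Itln1 -0.38 to 0.067; for the day difference of Apc loss (Nle1 lost) Pla2g5 -0.79 to 0.24, Itln1 -0.12 to 0.36, Lyz1 -0.48 to 0.087 and Ang4 -1.31 to 0.23; for the day difference of Nle1 loss (Apc intact) Pla2g5 -0.66 to 0.37 and Ang4 -0.027 to 0.73; for the day difference of Nle1 loss (Apc lost) Pla2g2a -0.38 to 0.094.

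Counts of all genes called that moved over 1.5 times were these. For Nle1 loss (Apc intact, day 1) 411 against 266 (no filter), 6 (only the groups compared), 802 (DESeq2) and 29 to 1159 (1 library left out). For Nle1 loss (Apc lost, day 1) 1762 against 33 (without the 3 libraries), 535 (only the groups compared) and 600 to 2147 (1 library left out). For the interaction of day 1 2 against 0 (DESeq2 size factors), 0 (stricter filter), 0 (replicate block), 4 (term for sex), 1 (only the groups compared), 46 (DESeq2) and 0 to 7 (1 library left out). For Nle1 loss (Apc intact, day 2) 2581 against 279 (only the groups compared) and 1206 to 2818 (1 library left out). For the interaction of day 2 868 against 374 to 1222 (1 library left out). For day 2 against 1 in Control mice 27 against 17 (no filter), 16 (replicate block), 50 (term for sex), 5 (only the groups compared), 144 (DESeq2) and 0 to 82 (1 library left out). For day 2 against 1 in NlecKO mice 6 against 2 (no filter), 0 (replicate block), 35 (term for sex), 1 (only the groups compared), 71 (DESeq2) and 0 to 194 (1 library left out). For day 2 against 1 in ApccKO mice 1875 against 34 (without the 3 libraries) and 861 to 1874 (1 library left out). For day 2 against 1 in double knockout mice 1075 against 454 (only the groups compared) and 254 to 1183 (1 library left out). For the day difference of Apc loss (Nle1 present) 187 against 118 (no filter), 3 (without the 3 libraries), 108 (only the groups compared), 485 (DESeq2) and 66 to 403 (1 library left out). For the day difference of Apc loss (Nle1 lost) 48 against 6 (only the groups compared), 225 (DESeq2) and 1 to 120 (1 library left out). For the day difference of Nle1 loss (Apc intact) 1 against 0 (DESeq2 size factors), 0 (no filter), 4 (stricter filter), 2 (replicate block), 211 (term for sex), 0 (only the groups compared), 218 (DESeq2) and 0 to 190 (1 library left out). For the day difference of Nle1 loss (Apc lost) 72 against 113 (term for sex), 5 (without the 3 libraries), 310 (DESeq2) and 8 to 134 (1 library left out).

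Levels ran from Lyz1, at 3907 CPM or more in every library, to Pla2g2c, Pla2g2e and Defa20, at under 3 CPM. With 3 mice per group the 95% intervals of the 6 genes were wide, widest for Ang4. Nothing in the labels says that mice of a group came from separate litters or cages, so p-values measure the spread between these mice only. Crypts were measured whole.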
